A study of Homo sapiens with 12 samples.

Results

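The 447 regions described here were PPARγ peaks called in cells that carried wild-type PPARγ. They recurred between libraries and lay at the end of a protein-coding gene. A peak of the pooled wild-type list was taken where it overlapped, by at least 1 bp, a peak in each of the 2 wild-type libraries, and where its summit was at most 1 kb away from the first or last base of a protein-coding gene span. These 447 gene-end peaks made up 5.57% (95% exact binomial interval 5.07 to 6.09) of the 8033 wild-type peaks that recurred in both libraries, out of 25164 pooled wild-type peaks. They lay at the ends of 509 genes. Recurrence in both libraries, which the choice of the regions used, was seen for 24.6% of the 1820 pooled peaks at gene ends and 32.5% of the 23344 pooled peaks elsewhere.

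Binding was measured by chromatin immunoprecipitation and sequencing (ChIP-seq) in MCF10A-NeuT cells, mammary epithelial cells of human origin that carry the transforming oncogene NeuT. The groups used were 2 ChIP libraries of cells that carried the PPARγ mutant K154/155Q, called KQ in the labels, whose paired lysines are replaced by glutamine, and 2 ChIP libraries of cells that carried wild-type (WT) PPARγ. Both lines were made by retroviral infection with a vector that also encodes green fluorescent protein, and both were kept in DMEM medium with serum. ChIP of vector-control cells and input DNA was not analysed here. The antibody field names an antibody to PPARγ while the design text names one to the Flag tag, so receptor from the cells' own gene may have been pulled down in both groups. The design text calls the mutant acetylation deficient. The labels do not say whether replicates were separate cultures, and p-values over libraries then measure a spread that may be technical.

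PPARγ is a nuclear receptor that binds DNA as a dimer with a retinoid X receptor. Its classical element, called DR1, is a direct repeat of the half-site AGGTCA with a spacer of 1 base. In fat cells it drives genes of lipid uptake, storage and oxidation, and PPAR elements near the start of a gene have been described for several enzymes of fatty acid use.

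The sequences show what lay under the summits closest to gene starts. Promoter windows, from 250 bases before to 50 after a start (RefSeq, GRCh38.p14), held the summit of 153 of the 447 peaks, in 186 windows. The 8 stretches below were chosen to show DR1-like letters in the promoters of lipid genes (ETFA, ACAA2, AGPS, AQP7), in 2 of the 3 promoters with the fewest mismatches (BAZ1B, GCC2) and in 2 promoters of high-fold peaks with a KQ peak (FRMPD1, PPP1R12B). Capitals mark the 13-base stretch most like AGGTCANAGGTCA or its reverse complement, each sequence is read 5′ to 3′ on the strand of the gene, and only bases before the start are printed. They came from chr15:76311571-76311633 (ETFA, minus strand), chr18:49813572-49813634 (ACAA2, minus), chr2:177392713-177392772 (AGPS, plus), chr9:33402674-33402736 (AQP7, minus), chr7:73522432-73522494 (BAZ1B, minus), chr2:108449151-108449205 (GCC2, plus), chr9:37603058-37603120 (FRMPD1, plus) and chr1:202348479-202348541 (PPP1R12B, plus).
ETFA: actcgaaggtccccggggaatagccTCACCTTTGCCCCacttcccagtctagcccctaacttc
ACAA2: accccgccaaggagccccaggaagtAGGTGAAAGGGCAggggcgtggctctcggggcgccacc
AGPS: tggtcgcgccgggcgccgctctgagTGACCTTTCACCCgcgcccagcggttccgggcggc
AQP7: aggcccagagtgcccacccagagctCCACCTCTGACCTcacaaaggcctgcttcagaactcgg
BAZ1B: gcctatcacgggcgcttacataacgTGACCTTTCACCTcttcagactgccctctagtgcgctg
GCC2: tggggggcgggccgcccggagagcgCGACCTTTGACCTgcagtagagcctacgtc
FRMPD1: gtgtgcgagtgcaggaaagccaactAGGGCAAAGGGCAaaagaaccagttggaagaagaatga
PPP1R12B: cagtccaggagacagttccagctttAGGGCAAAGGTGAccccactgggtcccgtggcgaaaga

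Read against the motif, BAZ1B and GCC2 held 1 mismatch, ETFA held 3, and the other 5 held 2. Lipid genes that were not printed matched no better than ETFA. The best match held 3 mismatches at ETFB, LPCAT3, PLIN4 and SLC25A20, where it lay 194 bp from the summit. It held 4 at ECI1, SCD, PNPLA2, MLYCD, ELOVL6 and AGPAT1. The match lay close to the summit in most of these promoters, with its centre 2 bp away in ETFA, 5 bp in ACAA2, 10 bp in AGPS, 14 bp in PPP1R12B, 16 bp in BAZ1B, 24 bp in GCC2 and 35 bp in FRMPD1. In AQP7, which encodes a glycerol channel, it lay 85 bp away. ETFA encodes a subunit of the flavoprotein that takes electrons from fatty acid oxidation, ACAA2 a mitochondrial thiolase, and AGPS a peroxisomal enzyme of ether lipid synthesis. A match describes letters in a window and is not a mapped binding site.

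The exact DR1 was in 0 of the 186 windows, and in 0.0226% of the 22130 promoter windows of all 15810 protein-coding genes with one. With any base at the fourth place of each half-site (AGGNCANAGGNCA) it was in 2 of the 186 windows (1.08%), against 0.285% of all windows. The single half-site AGGTCA was in 20.97% of the windows with a gene-end peak, against 11.9% of the 797 windows that held only the summit of a pooled peak that did not recur and 11.9% of all windows. A search that allowed mismatches was added after those counts were seen, with 1, 2 and 3 mismatches all tried. At most 1 mismatch gave 1.61%, 0.878% and 0.316% of the windows in the same order, and at most 3 gave 41.9%, 24.6% and 18.98%. At most 2 mismatches gave 24 windows (12.9%) of the recurring peaks, 4.52% of the windows of non-recurring peaks and 2.57% of all windows.

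These shares describe the windows and were not tested, since overlapping windows of the same gene or gene pair share their letters. The median GC content was 64.7% in the 186 windows against 62.3% in all windows, but the spread differed. Within 4 equal bins of GC content, low to high, a match with at most 2 mismatches was in 23.8%, 9.09%, 12.8% and 12.5% of the windows with a recurring peak, against 3.30%, 3.73%, 2.24% and 1.10% of all windows in those bins. Those bins held 21, 55, 78 and 32 of the 186 windows. The 23.8% stands for 5 of 21 windows, and more than 1 of the 5 belonged to the peak at KLRC1. The 24 windows belonged to 21 peaks. The centre of the match lay a median of 35 bp from the summit, within 50 bp in 13 of the 21 and within 100 bp in 19. Each window had to hold the summit, which limits these distances, and they were not compared with a background. A pooled KQ peak overlapped 3 of the 21 peaks (14.3%), against 30 of the 153 (19.6%) with a promoter window. Of the other motifs searched on both strands, the GC box GGGCGG was in 67.2% of the windows with a recurring peak, 69.4% of those with a non-recurring peak and 56.3% of all windows. The ETS motif CCGGAAG was in 19.4%, 20.6% and 12.8% in that order, the AP-1 motif TGANTCA in 9.68%, 8.66% and 6.15%, and CCAAT in 39.8%, 33.5% and 34.6%. The half-site is part of the DR1, so those searches overlap, and a window without a match says nothing about what binds there.

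**Figure D1:**
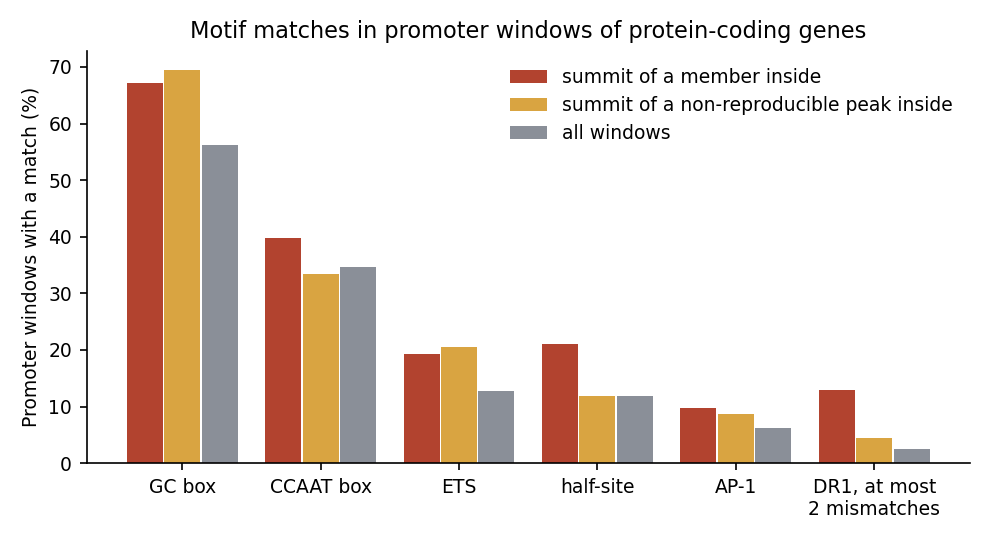
Share of promoter windows (%, vertical axis) that hold each motif, for the 186 windows with the summit of a recurring gene-end peak, the 797 windows with the summit of a non-recurring pooled peak and all 22130 windows. For DR1 with at most 2 mismatches the 3 bars stand at 12.9%, 4.52% and 2.57%, while those of the GC box stand at 67.2%, 69.4% and 56.3%.

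Of the 447 gene-end peaks, 276 (61.7%, 95% interval 57.1 to 66.3) had a known gene start within 1 kb. A further 82 lay at known gene stops only. The other 89 had no known start and at least 1 gene whose strand was not given. Without those 89, starts made up 77.1% (72.4 to 81.4) of the 358 placed peaks. The rule does not treat starts and stops alike. A start counted even beside a nearer stop or a gene of unknown strand, whereas a stop beside a gene of unknown strand was left out. The 276 peaks at starts gave 316 pairs of a peak and a start. The summit lay before the start in 221 pairs (69.9%) and within 250 bp on either side in 169 (53.5%), with a median distance of 214 bp. The last 100 bp before the start held 72 summits, and the longer stretch 101 to 250 bp before it held 73. In contrast, the first 100 bp of the gene had 18 and the next 150 bp had 6. Between 501 and 1000 bp inside, a longer stretch, there were 58. Distances run from the outer end of the gene span, so a summit inside can lie just before another annotated start of that gene. Such cases were AGPAT1 (959 bp inside, 29 bp before another start), DBI (670 and 67 bp) and GPX4 (643 and 13 bp). How many of the 58 were of this kind was not counted. Summits at stops were spread more widely. Of 111 pairs, 55 lay past the stop, 28 (25.2%) lay within 250 bp, and the median distance was 537 bp. Of all 15813 protein-coding genes with a known strand, 1.93% had a gene-end peak at the start and 0.696% had one at the stop.

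**Figure D2:**
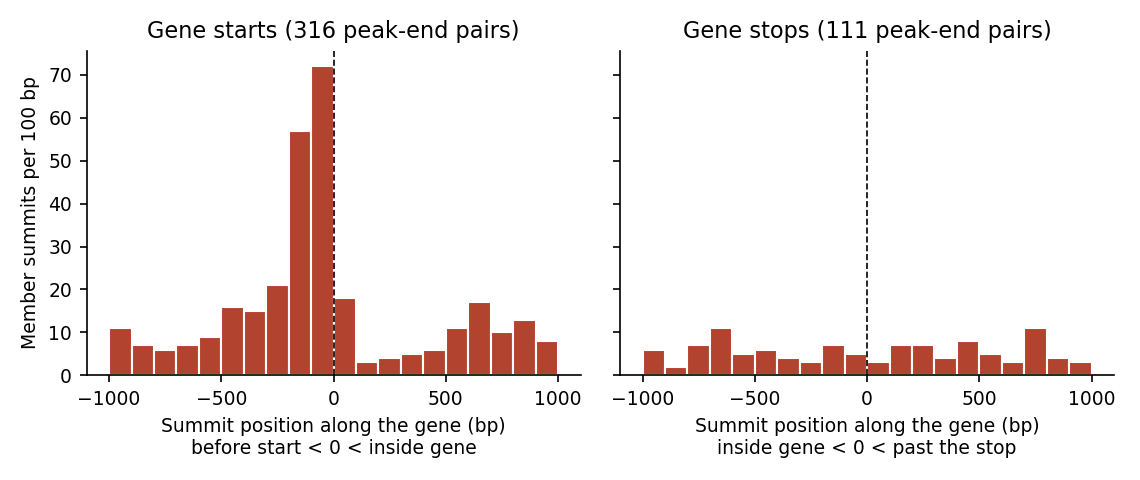
Number of gene-end peak summits per 100 bp (vertical axis) by position along the gene (bp, horizontal axis), around starts on the left (316 pairs) and stops on the right (111 pairs). Summits crowd into the 250 bp before the start and are spread over the whole 1 kb on both sides of stops.

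Peaks at stops had the higher median fold enrichment over the caller's background, a value made by the authors for each peak. The median was 7.70 at the 276 starts, 9.78 at the 82 stops and 8.68 where the strand was not given. Over all 447 peaks the median was 8.08 (quartiles 6.53 and 10.8, range 3.19 to 27.6), against 9.07 (7.22 and 11.4) for the 7586 other recurring peaks. Within library 1 of the wild type the medians were 6.66 and 7.32 in the same order, but within library 2 they were 7.18 and 7.15, so the lower fold at gene ends was seen in 1 of the 2 libraries. The median width was 271 bp against 257 bp. The 1373 gene-end peaks that did not recur had a median fold of 4.80.

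The strongest gene-end peak lay 131 bp before the start of ETFA, at chr15:76311386-76311802. It overlapped peaks of both KQ libraries, with folds of 7.31 and 5.14 in their own lists, and its fold was 25.4 and 17.9 in the WT libraries and 27.6 in the pooled wild-type list. Folds of different lists are not on one scale and are given side by side only. Next came a peak shared by ABHD15, whose product is an enzyme-like protein of fat cells, and TP53I13, with no peak in any KQ list and folds of 17.8 and 14.5 in the WT libraries. SP6, a transcription factor gene, again had no KQ peak, and folds of 17.99 and 18.5 in the WT libraries at 530 bp inside the gene. The peak 304 bp before the start of DLG4, which encodes a scaffold of synapses, had folds of 10.6 and 10.2 in the KQ libraries and 17.3 and 18.1 in the WT libraries. Its summit lay inside the neighbouring gene ACADVL, which encodes the acyl-CoA dehydrogenase for very long chains. SEMA3G, a secreted semaphorin, had a peak 81 bp past its stop, with none in KQ and folds of 16.1 and 15.9 in the WT libraries.

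The other 7 of the 12 highest-fold peaks all overlapped a pooled KQ peak, with KQ library support that varied. SLC25A20, the carrier that brings acylcarnitines into mitochondria, had a summit 15 bp before its start, with a peak in KQ library 1 only (fold 7.34) and folds of 22.8 and 14.9 in the WT libraries. PEX11A, which encodes a protein of peroxisome division, had a peak 797 bp past its stop, with folds of 6.49 and 7.39 in the KQ libraries and 17.98 and 13.7 in the WT libraries. FRMPD1 had a peak in KQ library 1 only (fold 7.74) and folds of 15.3 and 14.4 in the WT libraries. PRPF3, a splicing factor gene, had no peak in a single KQ library and folds of 15.7 and 22.2 in the WT libraries. The last 3 had no peak in a single KQ library either. NQO2, a quinone reductase gene, had 18.6 and 16.3 in the WT libraries, the peak shared by GMPPA and SPEGNB had 20.1 and 21.2 there, and AGR2, which encodes a disulfide isomerase of secretory epithelium, had 13.01 and 22.1.

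About 1 in 5 gene-end peaks was also found with the KQ mutant, a share near that of the other recurring peaks. The pooled KQ list was the shorter one, with 2846 peaks. A pooled KQ peak overlapped 81 of the 447 (18.1%, 95% interval 14.7 to 22.0), against 1537 of the 7586 others (20.3%, 19.4 to 21.2), a difference of -2.14 percentage points. Over all recurring wild-type peaks the share was 20.1%. With the others weighted to the fold bins of the gene-end peaks their share was 18.9%, and the difference was -0.779 points. KQ library 1 overlapped 43 of the gene-end peaks (9.62%, against 9.87% of the others) and KQ library 2 overlapped 32 (7.16%, against 8.02%). Both KQ libraries overlapped 21 of them (4.70%, 2.93 to 7.09), against 3.85% of the others. Of the 81, 21 had a peak in both KQ libraries, 29 in 1 and 31 in none, so the last group rests on the pooled KQ list alone. A further 4 had a peak in a KQ library but not in the pooled list, and 362 were in no KQ list. The share moves with the lists used. With recurrence in WT library 1 not required it was 12.4% of 801 gene-end peaks, and with WT library 2 not required 10.7% of 960. The pooled wild-type list was kept in both cases. With KQ library 2 or 1 alone in place of the pooled KQ list it was 7.16% or 9.62%, as given above. The intervals cover counting error only, and peaks are not replicates, so no p is given.

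The share with a KQ peak went with the strength of the wild-type peak, at gene ends as elsewhere. In 4 equal bins of the recurring wild-type peaks by fold, low to high, it was 11.2%, 11.8%, 20.7% and 34.7% of the gene-end peaks, with 160, 110, 82 and 95 peaks in the bins. Among the other recurring peaks it was 12.6%, 14.7%, 18.4% and 34.9%. The interval of each gene-end share contained the share of the other peaks. The 81 gene-end peaks with a KQ peak had a median fold of 10.4 in the wild-type list, against 7.82 for the 366 without. The share was 17.4% at starts, 19.5% at stops and 19.1% where the strand was not given.

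**Figure D3:**
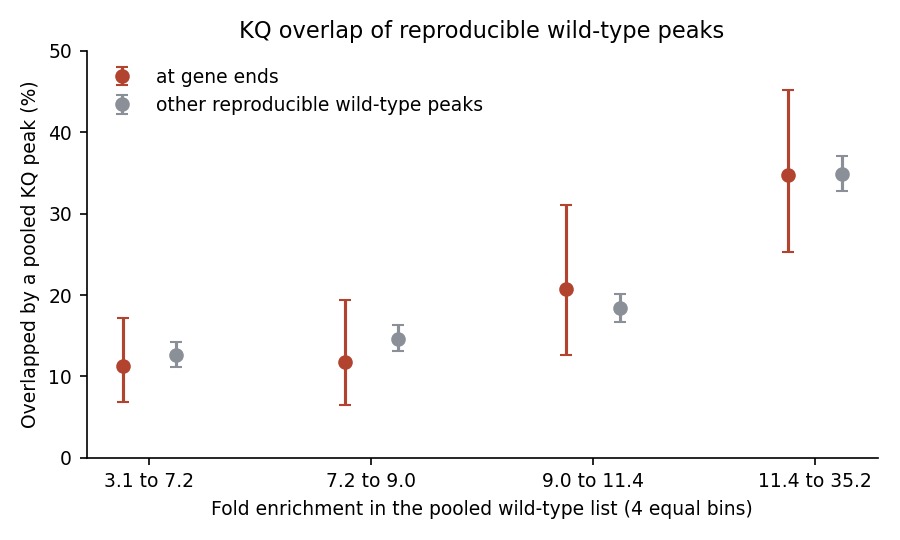
Share of recurring wild-type peaks overlapped by a pooled KQ peak (%, vertical axis) in 4 equal bins by fold enrichment in the pooled wild-type list, for gene-end peaks (left point of each pair) and other recurring peaks (right point). Bars are 95% exact binomial intervals, and both series climb to 34.7% and 34.9% in the highest bin.

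Of the 21 gene-end peaks with support in both KQ libraries, those at ETFA, at PEX11A and at DLG4 (inside ACADVL) are described above. CAT, the peroxisomal catalase gene, had folds of 6.58 and 4.96 in the KQ libraries and 13.5 and 15.1 in the WT libraries, 407 bp inside the gene. PEX19, a receptor for peroxisomal membrane proteins, had 6.53 and 3.78 in the KQ libraries and 12.3 and 12.9 in the WT libraries. ECH1, an isomerase of fatty acid breakdown, had 5.01 and 9.38 in the KQ libraries and 9.83 and 12.5 in the WT libraries. ACSL3, which activates long-chain fatty acids, had 6.32 and 5.75 in the KQ libraries and 6.89 and 8.56 in the WT libraries.

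Others in both KQ libraries had varied functions. BMPR1A, a receptor for bone morphogenetic proteins, had folds of 7.59 and 7.64 in the KQ libraries and 17.9 and 14.6 in the WT libraries. RIMKLA had 10.0 and 5.94 in the KQ libraries and 17.2 and 9.91 in the WT libraries. AKR1B1, the aldose reductase gene, had 13.1 and 6.63 in the KQ libraries and 11.1 and 12.7 in the WT libraries, 939 bp before its start. ATP6V1B2, a subunit of the proton pump of lysosomes, had 8.18 and 6.04 in the KQ libraries and 14.3 and 8.37 in the WT libraries. PPP1R12B, a regulatory subunit of myosin phosphatase, had 5.92 and 4.86 in the KQ libraries and 8.42 and 24.7 in the WT libraries. RDH5, a retinol dehydrogenase gene, had 3.19 and 7.88 in the KQ libraries and 9.77 and 7.40 in the WT libraries. Further ones were CDK12, PPP1R15B, DENR, TMEM79, FBXL5, CUL3 and RBM39.

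Strong gene-end peaks with no peak in any KQ list lay at genes of varied functions. After ABHD15 with TP53I13, SP6 and SEMA3G, the next 7 by fold were led by the overlapping genes TVP23C-CDRT4 and CDRT4, with folds of 14.5 and 10.2 in the WT libraries. The peak at the ends of TTLL13, NGRN and CIB1 had 14.1 and 14.4. RNASE4 had 17.9 and 6.17, CDK11A, which encodes a cyclin-dependent kinase and has a near-identical neighbour, had 24.7 and 16.8, and TGM5, a transglutaminase gene of the epidermis, had 21.6 and 9.44. NFIL3, a transcription factor gene, had 13.9 and 11.96, and the peak shared by TBP, the TATA-binding protein gene, and PSMB1, a proteasome subunit gene, had 14.8 and 13.6. The fold was the higher number in WT library 1 at each of these 10 peaks except those of SP6 and TTLL13. Folds of the WT libraries are not on one scale, so this does not compare binding between them.

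A gene-end peak was present at 509 of 19974 protein-coding genes, or 2.55%. Against that background, 18 gene lists chosen with earlier results of these data known held 65 of these genes. The list of PPAR targets and fatty acid oxidation had the highest share, with 14 of 58 genes (24.1%, 95% interval 13.9 to 37.2). The list of lipid droplets and of triglyceride and phospholipid synthesis had 11 of 52 (21.2%, 11.1 to 34.7). Peroxisome genes followed with 6 of 47 (12.8%), redox and glutathione genes with 5 of 40 (12.5%), and nuclear receptors and coregulators with 5 of 52 (9.62%). RNA processing had 5 of 62 (8.06%), luminal mammary epithelium 2 of 26 (7.69%), ribosomal proteins 4 of 76 (5.26%), mitochondrial respiration and translation 6 of 133 (4.51%) and histones 3 of 71 (4.22%). Autophagy and lysosome had 2 of 64, and 1 gene each came from cholesterol metabolism (ABCG1, of 34), AP-1 and immediate early genes (DUSP1, of 46), basal mammary epithelium (ITGA3, of 34), ERBB signalling (SHC1, of 51) and inflammatory mediators (LIF, of 33). Glycolysis had 0 of 28 and cell cycle 0 of 52, with upper limits of 12.3% and 6.85%. CAT and HSD17B4 stand on more than 1 list.

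**Figure D4:**
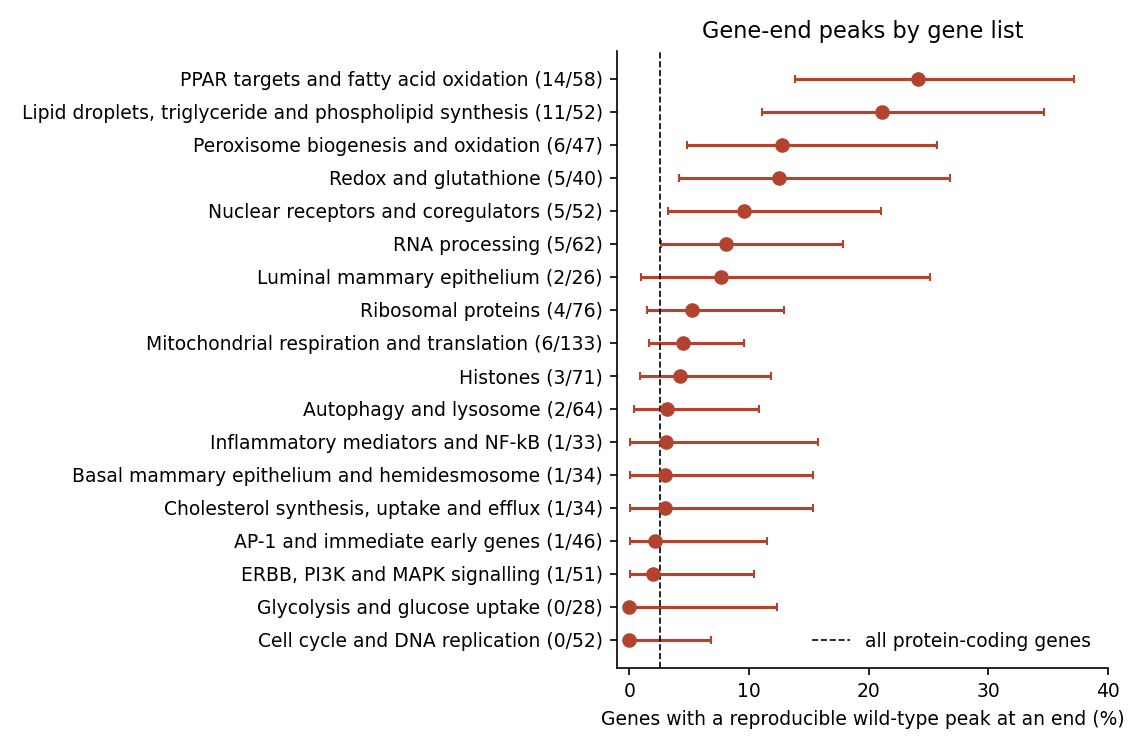
Share of each list's protein-coding genes with a recurring wild-type peak at an end (%, horizontal axis), with 95% exact binomial intervals, and the counts beside each name. The dashed line is the share of all protein-coding genes, 2.55%, and the fatty acid and lipid droplet lists stand farthest to its right at 24.1% and 21.2%.

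Fatty acid oxidation genes with a gene-end peak ranged in role from transport to electron transfer. The 17 peaks of the 14 genes had a median fold of 10.8 in the wild-type list, against 8.08 over all gene-end peaks, and 11 of the 17 (64.7%) overlapped a pooled KQ peak, against 18.1% of all gene-end peaks and 20.1% of all recurring wild-type peaks. The difference was not tested. Each gene of the electron transfer flavoprotein and of its oxidoreductase had a gene-end peak that overlapped a pooled KQ peak. Beside ETFA, ETFB had a peak 192 bp before its start with a fold of 5.92 in KQ library 1, none in KQ library 2, and 14.99 and 14.1 in the WT libraries. ETFDH, which passes these electrons to ubiquinone, had a peak 349 bp inside the gene with a fold of 6.05 in KQ library 2, none in KQ library 1, and 8.65 and 7.40 in the WT libraries. Both genes had a weaker second peak with no KQ peak, and the ETFDH peaks also lay at the start of C4orf46.

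Enzymes of the oxidation cycle followed. The ACAA2 peak had a fold of 4.81 in KQ library 1, none in KQ library 2, and 8.72 and 10.5 in the WT libraries. HADH, the dehydrogenase of the cycle for short chains, had 6.62 in KQ library 1, none in KQ library 2, and 8.72 and 9.57 in the WT libraries. The other ECH1 peak, 564 bp inside the gene, had 6.14 in KQ library 1, none in KQ library 2, and 17.1 and 9.99 in the WT libraries. HSD17B4, which encodes a peroxisomal enzyme of the same cycle, had 4.36 in KQ library 1, none in KQ library 2, and 4.11 and 6.88 in the WT libraries. Genes of the list with no peak in any KQ list included MLYCD, which removes the inhibitor malonyl-CoA (6.31 and 9.61 in the WT libraries), FABP4, a fatty acid carrier of fat cells (5.45 and 5.98), and ECI1, another isomerase (5.39 and 4.67).

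Gene-end peaks of lipid droplet and lipid synthesis genes had a similar median fold in the wild type, 11.3, but a narrower range. It ran from 7.02 to 14.9, against 4.24 to 27.6 on the fatty acid list. Of the 11 peaks, 1 (9.09%) overlapped a KQ peak. Over all recurring wild-type peaks that share was 20.1%. That one was at LPCAT3, which remodels phospholipids, with a fold of 5.45 in KQ library 1, none in KQ library 2, and 10.2 and 14.4 in the WT libraries. The other 10 had no peak in any KQ list. PLIN5 and PLIN4, which coat lipid droplets, had folds of 13.5 and 13.98, and of 8.21 and 19.8, in the WT libraries. They were followed by ELOVL6, which elongates fatty acids (8.39 and 7.18), AQP7 (12.9 and 6.58), AGPAT1, which makes phosphatidic acid (8.72 and 13.03), and PISD, which makes phosphatidylethanolamine (6.93 and 9.67). SCD, the desaturase, had 6.02 and 6.86, GPD1, which makes glycerol 3-phosphate, 8.22 and 7.25, GPAT3, the next acyltransferase, 5.87 and 5.38, and PNPLA2, the triglyceride lipase, 5.33 and 6.58. The difference in KQ overlap between these lists was not tested or adjusted for fold, with which the overlap went. The counts of both lists also move with the settings. At 500 bp from the gene end the lipid droplet list had 6 genes, and with recurrence in WT library 2 not required it had 17.

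**Figure D5:**
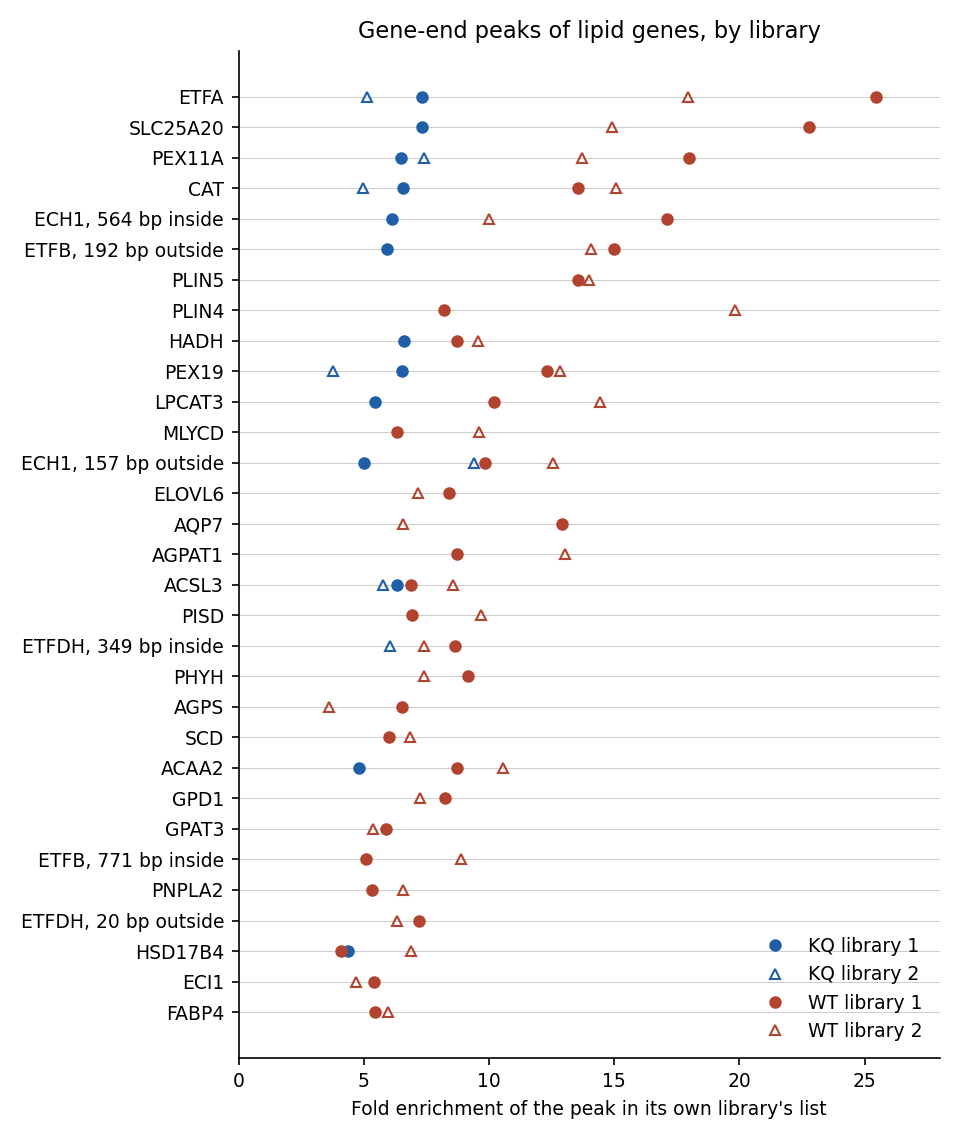
Fold enrichment (horizontal axis) of gene-end peaks of the fatty acid, lipid droplet and peroxisome lists in each library's own list, for KQ libraries 1 and 2 (blue) and WT libraries 1 and 2 (red), ordered by fold in the pooled wild-type list. Folds of different libraries are not on one scale, and a missing blue mark means no overlapping peak in that KQ library, as in all the droplet and synthesis genes plotted but LPCAT3.

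The remaining lists held few peaks each, and their KQ counts were not tested against the 20.1% over all recurring peaks. Of the 6 peroxisome peaks 4 had one, at PEX11A, CAT, PEX19 and HSD17B4, while PHYH, which starts the breakdown of phytanic acid (9.14 and 7.40 in the WT libraries), and AGPS (6.54 and 3.59) had none. All 4 peaks of ribosomal protein genes overlapped a pooled KQ peak. RPS19 had a fold of 6.96 in KQ library 2, none in KQ library 1, and 14.6 and 12.6 in the WT libraries, and RPL27 had 4.75 in KQ library 2, none in KQ library 1, and 4.72 and 4.97 in the WT libraries. RPS20 had no peak in a single KQ library, and 8.21 and 7.78 in the WT libraries. None of the 6 peaks of mitochondrial respiration and translation (ATP5MC3, ATP5PF, MRPL18, MRPS14, MRPS26 and UQCRQ) had a KQ peak, at a median wild-type fold of 6.71.

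Among nuclear receptor genes, RXRB, a dimer partner of PPARγ, had a summit 9 bp inside its start, with no KQ peak and folds of 5.12 and 6.4 in the WT libraries. NR2F1 and NR2F6, orphan receptor genes, had none in KQ either, and 5.70 and 4.67, and 4.36 and 6.00, in the WT libraries. ESRRA, a receptor gene of energy metabolism, had a peak at each end. The one near its start overlapped a pooled KQ peak, with none in a single KQ library. TBL1XR1, a corepressor subunit gene, had 5.36 in KQ library 1, none in KQ library 2, and 8.09 and 6.33 in the WT libraries. The redox genes other than CAT had no KQ peak. Of these, GPX4, which reduces lipid peroxides, had 9.45 and 10.8 in the WT libraries, and the peroxiredoxin genes PRDX1, PRDX5 and PRDX6 had folds between 2.48 and 5.99 there. XBP1, a factor of the secretory pathway on the luminal list, had no KQ peak and 5.45 and 6.92 in the WT libraries.

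Some gene-end peaks served more than 1 gene by position. The summit lay within 1 kb of ends of 2 or more genes in 77 of the 447 (17.2%, 95% interval 13.8 to 21.1), 73 with 2 genes and 4 with 3. These 77 are called bidirectional here by position alone, whatever the strands. They include a start beside a stop (EFNA1 with SLC50A1) and overlapping genes that share an end (TVP23C-CDRT4 with CDRT4). Of the 77, 38 lay at the starts of 38 divergent pairs on opposite strands, with a median distance of 244.5 bp between the starts and 17 pairs whose spans overlapped. A pair could be called divergent only where both strands were known, so pairs such as UROS with BCCIP could not be classed. A gene-end peak lay at both starts in 3.37% of the 1097 divergent pairs with starts at most 1 kb apart. The summit lay between the starts in 11 of the 38 peaks. Divergent peaks had a median fold of 6.86, against 8.23 for the 370 peaks with 1 gene, and 5 of the 38 (13.2%, 4.41 to 28.1) overlapped a pooled KQ peak, against 18.9% of the 370.

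The strongest divergent peaks lay at CIB1 and NGRN, where TTLL13 also ends, then at PXT1 and KCTD20, with folds of 9.44 and 11.4 in the WT libraries. FAM227B and DTWD1 had a pooled KQ peak and 6.88 and 14.7 in the WT libraries. ANKMY1 and DUSP28 had 9.29 and 11.96, UBXN11 and CD52 had 7.27 and 6.39, and FRK, a tyrosine kinase gene, with NT5DC1 had 9.94 and 7.85, all without KQ. The other 4 pairs with a pooled KQ peak were TMED5 with CCDC18 (8.88 and 8.53 in the WT libraries), SKA3 with MRPL57 (4.20 and 7.18), STYXL1 with MDH2, the mitochondrial malate dehydrogenase gene (5.11 and 6.45), and DCAF16 with NCAPG, a condensin subunit gene (4.39 and 3.98). TMED5 with CCDC18 had a peak in KQ library 2 only, and SKA3 with MRPL57 in KQ library 1 only. FAM227B with DTWD1, STYXL1 with MDH2 and DCAF16 with NCAPG had none in a single KQ library. Pairs without a KQ peak included RXRB with SLC39A7, GDF9 with UQCRQ, SHC1 with CKS1B, HSPA1L with HSPA1A, TCP1 with MRPL18, RARS2 with ORC3, C2orf76 with DBI, an acyl-CoA binding protein gene, and RAD17 with both TAF9 and AK6. Among bidirectional peaks of other orientation or unknown strand, the strongest after those already given were at ETFB with CLDND2, at SCRN2 with LRRC46 (10.5 and 11.9 in the WT libraries) and at UROS with BCCIP (10.2 and 15.5).

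A pair of gene-end peaks was found at each of 19 genes. Beside ECH1, ETFB, ETFDH and ESRRA, these included the glycogen and glucose enzymes GBE1, PGM1 and G6PC1, none of which had a KQ peak. GBE1, the glycogen branching enzyme, had folds of 8.69 and 7.63 in the WT libraries at 178 bp before the start and 8.67 and 6.86 at 522 bp inside. PGM1, phosphoglucomutase, had 9.03 and 9.83 before the start and 4.88 and 7.18 inside. G6PC1, glucose-6-phosphatase, had its peaks at the stop, with 12.02 and 4.79 past it and 7.40 and 9.60 inside. The complement gene C3 had a pooled KQ peak at 114 bp outside 1 end, with none in a single KQ library, and 8.84 and 6.62 in the WT libraries. Its other peak, 964 bp inside the opposite end, had no KQ peak and 7.31 and 6.13 in the WT libraries. RNASE7, an antimicrobial ribonuclease gene, had a pooled KQ peak at the stop, with none in a single KQ library, and 10.8 and 11.3 in the WT libraries. Near the start it had no KQ peak, and 5.46 and 6.22 in the WT libraries. The others were ARMH1, C4orf46, CD46, CDC42EP4, CSF1R, HSDL2, INKA2, NAA50, RILP and TMEM53.

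Gene-end peaks came from every chromosome used, from 4 on chromosome 21 to 63 on chromosome 1. They made up 16.2% of the recurring wild-type peaks on chromosome 19 and 11.8% on chromosome 17, and 2.24% on chromosome 13. The share of genes with one varied less, between 1.18% on chromosome X and 3.64%. The 3 peaks nearest inside the 1 kb limit were at GPD1 and NFIL3 (997 bp each, folds 7.47 and 17.4) and CDC26 (994 bp, 5.05). The 3 nearest outside it were at STK10 (1001 bp, fold 21.6), METTL21C (1014 bp, 11.3) and RARA (1014 bp, 9.74). None of the 6 had a pooled KQ peak.

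The share of each library's own peaks that lay at gene ends did not separate the groups. It was 6.41% and 5.31% of the 1263 and 1035 peaks of the KQ libraries, with a mean of 5.86 ± 0.777% (SD, n = 2), and 6.19% and 6.98% of the 18143 and 17859 peaks of the WT libraries, with a mean of 6.58 ± 0.557% (SD, n = 2). The ranges overlapped, and the difference of -0.720 points was not beyond the spread (exact permutation test, two-sided, p = 0.667, where 0.33 is the smallest possible with 2 against 2). The sign changed with the threshold on the peaks, to 0.743 points at a −log10 q of at least 5 and 0.250 points over the 1000 peaks of lowest q in each library. Of the 2846 pooled KQ peaks, 174 (6.11%) lay at a gene end. A pooled wild-type peak overlapped 129 of these (74.1%), 81 overlapped one of the 447 wild-type gene-end peaks, 28 were in both KQ libraries, and 38 were in no wild-type list.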

How the data were processed

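PPARγ ChIP-seq peak lists of 2 KQ and 2 WT libraries and of each group's pooled libraries were used, 6 lists in all. The tools named in the submitters' processing notes are Bowtie2 (version 2) with the build hg38, the peak caller MACS2, HOMER, deepTools and bedtools. How the caller was run, whether input was used and the read depth are not stated in those sources, so the depth behind each peak is unknown. The deposited lists give, per peak, a fold (a ratio over the caller's background), −log10 of the p-value and of the q-value, and a summit offset, all made by the authors.

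Peaks on chromosomes 1 to 22 and X were taken to overlap when they shared at least 1 bp. Gene spans came from RefSeq (GRCh38.p14, the assembly of hg38), with 19974 protein-coding genes. Strand came from the RefSeq promoter table and was known for 15813. Positions within genes were not split by exon, intron or untranslated region. Motifs were searched on both strands of 300-base promoter windows, 250 before to 50 after each start. Of the 509 genes with a gene-end peak, 407 had a window. Shares carry Clopper-Pearson 95% intervals, which cover counting error only. Libraries were compared by an exact permutation test. A peak counts as a KQ site where a KQ peak overlaps it, and the KQ lists are the shorter ones, so absence from them depends on the calling threshold.

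The regions, gene lists and tests were chosen with earlier results of these data known. Named with values were the genes of the 12 highest-fold peaks, the 10 highest-fold peaks with no KQ peak, the 12 highest-fold peaks in both KQ libraries, the strongest bidirectional peaks, list genes, genes with several peaks, and peaks nearest the 1 kb limit. Some genes are counted but their values are not reported here. The overlap code was tested on simulated lists. Python 3.11.15, pandas 2.3.3, NumPy 2.4.6 and SciPy 1.17.1 were used. Alternatives covered the distance to the gene end, the q threshold, the overlap required, gene symbols and each library left out. For counts and KQ shares, leaving out a library kept the pooled wild-type list. A WT library was then not required for recurrence, or 1 KQ library was used alone.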

Additional observations from a re-analysis of the deposited data

How the results depend on the processing

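The count of 447 gene-end peaks was 296 at 500 bp, 729 at 2 kb, 265 at a −log10 q of at least 5, and between 801 and 960 when recurrence in 1 WT library was enough. Genes with a peak numbered 332 at 500 bp and 819 at 2 kb, and peaks at ends of 2 or more genes 39 and 131. The share at starts, 77.1% of placed peaks, was 83.3% at 500 bp. The share with a KQ peak stayed between 17.3% and 19.6% over the other distances, overlap rules, q threshold and gene tables. It was 4.70% for KQ peaks present in both KQ libraries. With 1 WT library not required, or 1 KQ library used alone, it lay between 7.16% and 12.4%. The fatty acid list had between 11 and 17 genes over its alternatives. The lipid droplet list had 6 genes at 500 bp and between 12 and 17 with recurrence in 1 WT library not required. Added after the data were seen, DR1 matches were in 1.61% of windows with at most 1 mismatch and 41.9% with at most 3.

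The KQ minus WT difference in the gene-end share per library reversed to 0.743 points at a −log10 q of at least 5 and to 0.250 points over the 1000 lowest-q peaks. With a library left out it lay between -1.27 and -0.170, at 500 bp it was -0.00577 and at 2 kb -1.29. Pairing libraries of the same number as a replicate block gave the same difference, -0.720 (exact permutation p = 1.0, where 0.5 is the smallest possible), with 0.224 in pair 1 and -1.66 in pair 2. The causes of these changes were not tested. Over all results 24 recomputed values were classed as the same, 19 as moved and 2 as reversed. For a count, the same meant within a set factor of the main value, and for a share inside its interval. For the KQ minus WT difference it meant only the same sign, whatever the size. Read depth is not in the peak lists, so a site without a KQ peak may lie below the calling threshold.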
